A study of Mus musculus with 12 samples.

Results

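The DYRK and HIPK kinases are 8 genes here (Dyrk1a, Dyrk1b, Dyrk2, Dyrk3, Dyrk4, Hipk1, Hipk2 and Hipk3), chosen by their symbol among the 18444 genes listed for each library. Their levels were followed in RNA-seq libraries of hearts from C57BL/6 mice, as CPM, the count of a gene scaled to a common library total. Of the 8, 7 passed the filter on low counts and were among the 14212 genes tested. Dyrk4 did not pass, and Dyrk3 passed only through its level at the younger age. The 12 libraries form 4 groups of 3: wild-type littermates (WT) and DYRK1B transgenic mice (D1-Tg), each either newborn (3 days, P3) or adult (8 weeks, P56). The transgene is a full-length mouse Dyrk1b cDNA under the promoter of alpha myosin heavy chain (Myh6), which is active in heart muscle cells, so Dyrk1b is both a member and the gene that was manipulated. No other allele or treatment is given for either genotype. How many founder lines the mice come from, and whether a library is 1 heart or a pool, is not given in the sources used here, so p-values measure the spread between libraries only.

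DYRK kinases phosphorylate serine and threonine on their substrates, but switch themselves on by phosphorylating a tyrosine in their own activation loop as they fold. This makes their activity depend largely on how much protein is made. DYRK1A and DYRK1B form class I, are found in the nucleus and the cytoplasm, phosphorylate NFAT transcription factors, which calcineurin activates, and promote exit from the cell cycle through D cyclins, p27 and the DREAM repressor complex. DYRK2, DYRK3 and DYRK4 form class II, and the homeodomain-interacting HIPK kinases are their nearest relatives, known as nuclear cofactors in p53, Wnt and TGF-beta signalling. In the heart, DYRK1A is known as a restraint on NFAT-driven hypertrophy and on cell cycle activity of cardiomyocytes.

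The promoters are shown first, since the transgene joins the coding part of 1 member to the start region of another gene. RefSeq windows of 300 bases on GRCm38.p6 (250 before the start of a transcript and 50 after it) were found for 8 of 8 members, in 13 windows. They are shown for Myh6, whose promoter drives the transgene, for the native Dyrk1b gene, and for Hipk2, Hipk3 and Dyrk2, which differed between genotypes at P56. Capitals mark every TATAAA and every GGGCGG on either strand (CCGCCC is the latter on the opposite strand), and neighbouring matches of GGGCGG can overlap.
Myh6, chr14:54966558-54966857, minus strand: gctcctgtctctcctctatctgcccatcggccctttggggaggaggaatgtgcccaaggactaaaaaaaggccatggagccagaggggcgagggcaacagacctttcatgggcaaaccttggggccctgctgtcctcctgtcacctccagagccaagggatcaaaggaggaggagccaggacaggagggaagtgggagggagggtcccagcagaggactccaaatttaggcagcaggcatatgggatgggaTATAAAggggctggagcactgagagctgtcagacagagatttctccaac
Dyrk1b, second window, chr7:28180066-28180365, plus strand: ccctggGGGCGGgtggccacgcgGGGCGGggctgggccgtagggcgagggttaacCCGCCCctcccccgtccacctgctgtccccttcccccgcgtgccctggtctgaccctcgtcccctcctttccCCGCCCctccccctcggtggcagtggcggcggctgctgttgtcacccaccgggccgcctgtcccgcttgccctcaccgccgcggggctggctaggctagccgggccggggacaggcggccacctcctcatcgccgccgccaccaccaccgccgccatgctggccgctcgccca
Hipk2, first window, chr6:38876141-38876440, minus strand: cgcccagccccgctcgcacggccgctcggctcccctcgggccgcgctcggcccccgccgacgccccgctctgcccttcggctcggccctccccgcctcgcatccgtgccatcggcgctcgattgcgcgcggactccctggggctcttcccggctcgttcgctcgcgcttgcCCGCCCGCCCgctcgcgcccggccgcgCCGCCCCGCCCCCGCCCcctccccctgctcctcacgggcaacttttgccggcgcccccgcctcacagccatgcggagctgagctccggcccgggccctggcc
Hipk3, chr2:104494440-104494739, minus strand: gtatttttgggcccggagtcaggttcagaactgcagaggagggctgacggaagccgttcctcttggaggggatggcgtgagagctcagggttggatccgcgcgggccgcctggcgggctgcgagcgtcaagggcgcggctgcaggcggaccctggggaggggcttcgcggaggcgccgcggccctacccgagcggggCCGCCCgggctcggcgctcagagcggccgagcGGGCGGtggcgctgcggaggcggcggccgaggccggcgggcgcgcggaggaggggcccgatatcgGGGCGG
Dyrk2, chr10:118868854-118869153, minus strand: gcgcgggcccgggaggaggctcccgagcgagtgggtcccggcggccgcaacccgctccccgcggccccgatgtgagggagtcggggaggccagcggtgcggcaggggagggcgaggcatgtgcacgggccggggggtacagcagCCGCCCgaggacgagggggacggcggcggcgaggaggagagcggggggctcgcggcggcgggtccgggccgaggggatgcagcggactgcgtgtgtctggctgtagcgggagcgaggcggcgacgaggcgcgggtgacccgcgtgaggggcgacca
Myh6 holds 1 TATAAA, 0 GGGCGG and 2 CpG dinucleotides in its window, with 57.3% G and C. Of the 13 windows of the family, 0 hold TATAAA and 7 hold GGGCGG. Their median is 72% G and C (range 32 to 80.7%) and 31 CpG (range 1 to 54). Some of them lie near Myh6 in part of these values. The first Dyrk1b window, not printed, has 57% G and C, 17 CpG and 1 GGGCGG. The second Hipk2 window, also not printed, has 51.3% G and C, 1 CpG and 0 GGGCGG. Over all 32841 windows of that length, 13.6% hold TATAAA and 35.7% hold GGGCGG, and the medians are 52.7% G and C and 7 CpG. These matches describe the letters only. The bases of the promoter in the construct are not given in the labels, and the window shown is that of the mouse's own Myh6 gene.

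Library totals ran from 15742474 to 17095351 counts at P3 and from 11174527 to 13231968 at P56. Among the P3 libraries, WT replicate 2 and D1-Tg replicate 3 had Y-linked transcripts at 2.70 and 2.44 CPM, against at least 112 CPM in every other library, so the ages differ in part by sex while the P56 libraries do not. WT P3 replicate 1 was the highest of its group for Dyrk1a, Dyrk1b, Dyrk3, Hipk1, Hipk2 and Hipk3 and the lowest for Dyrk2. In RNA of hearts, fewer cells of a type and less RNA per cell cannot be told apart.

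Levels between genes were compared per kilobase (kb) of the longest coding transcript in GENCODE M21. In WT hearts at P56, the level was 38.2 ± 2.93 CPM per kb for Dyrk1b (mean ± SD, n = 3), 37.2 ± 1.32 for Hipk3, 27.1 ± 0.772 for Hipk2, 16.2 ± 3.00 for Hipk1, 15.7 ± 0.133 for Dyrk1a and 7.37 ± 0.681 for Dyrk2. Dyrk1b and Hipk3, and likewise Hipk1 and Dyrk1a, are neighbours in that order that do not differ beyond their spread. Dyrk3 followed at 0.112 ± 0.0218 and Dyrk4 at 0.0142 CPM per kb. Thus 6 of the 8 kinases lay between 7.37 and 38.2 CPM per kb in the adult heart, and a pair of class II genes lay far below them. Per kb of coding sequence, which leaves out the long untranslated ends of Dyrk2 and the HIPK transcripts, Hipk3 came before Hipk2 and Dyrk1b in WT at P56 (76.2, 58.1 and 46.9 CPM per kb), so the order of these genes depends on the length used. In D1-Tg hearts at P56, Dyrk1b led by either length, at 315 ± 70.1 CPM per kb of transcript and 386 CPM per kb of coding sequence. Per kb of transcript, it made up 70.1% of the summed level of the 8 genes, against 26.9% in WT. These shares depend on the length used as well.

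**Figure D1:**
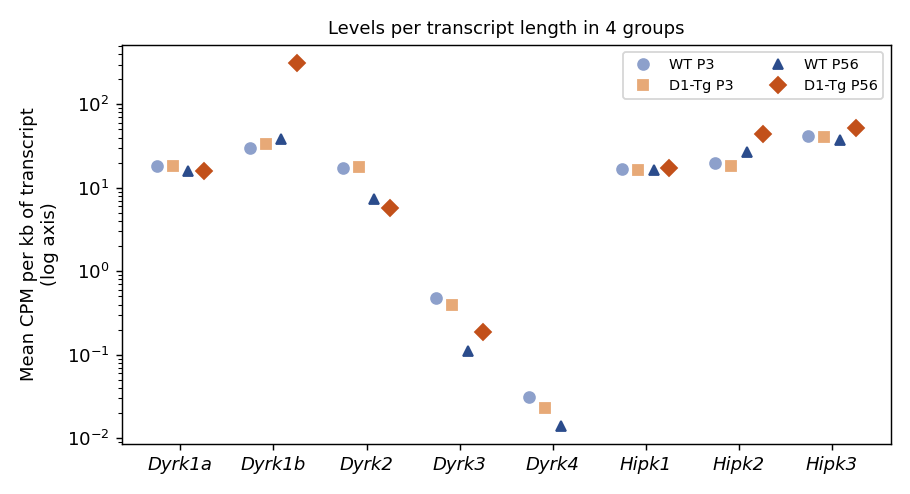
Mean CPM per kb of the longest coding transcript (log axis) for the 8 genes in the 4 groups, n = 3 libraries each. Dyrk1b in D1-Tg at P56 stands at 315 and above every other point, Dyrk3 and Dyrk4 lie below 1 in every group, and Dyrk4 in D1-Tg at P56, listed at 0, cannot be drawn.

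Dyrk1b, the class I kinase carried by the transgene, checks the genotype labels. At P56 it stood at 95, 105 and 90.6 CPM in WT replicates 1 to 3 and at 596, 929 and 871 CPM in D1-Tg replicates 1 to 3. The groups do not overlap, and the transgenic libraries spread more widely (coefficient of variation 22.2% against 7.66%), with replicate 1 the lowest. The log2 fold change was 3.04 (SE 0.15, adjusted p = 2.37e-07 by edgeR's quasi-likelihood test with Benjamini-Hochberg adjustment), an 8.24-fold difference with a 95% interval of 6.60 to 10.3. At P3 it stood at 78.1, 76.2 and 71.6 CPM in WT and at 93.1, 77.6 and 83.4 CPM in the libraries labelled D1-Tg. Those groups overlap, and the log2 fold change of 0.17 (95% interval -0.13 to 0.47, edgeR adjusted p = 0.927) did not pass the test, so the Dyrk1b level does not bear out the transgenic label at P3. Comparisons at P3 are therefore given between labels. Myh6 itself, whose promoter drives the cDNA, was already transcribed at P3, at 15079.8 ± 3375 CPM in WT and 16212 ± 1651 CPM in the libraries labelled D1-Tg, and reached 39576 ± 1507 and 31205 ± 2935 CPM at P56 (n = 3 each). Reads of the cDNA and of the native gene are counted as 1 gene and cannot be told apart.

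Dyrk1a, the class I relative best known from its gene dosage in Down syndrome, did not pass the test between genotypes at P56, and its interval was narrow. It stood at 91.1, 90.4 and 89.6 CPM in WT and at 93.2, 94.5 and 89.6 CPM in D1-Tg at P56. The log2 difference was 0.03 with a 95% interval of -0.10 to 0.17 (edgeR adjusted p = 0.742), which leaves room for at most a 1.12-fold increase and for a level down to 0.931 of WT. At P3 the libraries held 115, 99.7 and 105 CPM in WT and 108, 109 and 102 CPM under the D1-Tg label, with a log2 difference of -0.01 (interval -0.14 to 0.13, adjusted p = 0.993). At P56 the interval of Dyrk1a thus allows only small differences, while Dyrk1b differed by 8.24-fold at that age.

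The balance of these close relatives within a library does not depend on library scaling. Dyrk1b gave 40.4, 43.3 and 40.5% of the summed Dyrk1a and Dyrk1b counts in WT at P3 and 46.4, 41.6 and 45.0% in the libraries labelled D1-Tg at P3. It gave 51.1, 53.8 and 50.3% in WT at P56 and 86.5, 90.8 and 90.7% in D1-Tg at P56. The shares of the P56 groups do not overlap with each other or with those of P3, whereas the P3 groups overlap. The difference between genotypes was 37.6 percentage points at P56 (exact two-sided permutation test, p = 0.1, adjusted p = 0.133 over 4 comparisons) and 2.91 points at P3 (exact permutation p = 0.2). Transgene reads count as Dyrk1b, so a higher share in D1-Tg at P56 is part of the design and only checks the label. In WT the share was 10.3 points higher at P56 than at P3 (exact permutation p = 0.1, adjusted p = 0.133). With 3 against 3 libraries 0.1 is the smallest p such a test can give. The ratio of Dyrk1b to Dyrk1a counts was 0.678 to 0.765 in WT at P3, 1.01 to 1.16 in WT at P56 and 6.39 to 9.83 in D1-Tg at P56.

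**Figure D2:**
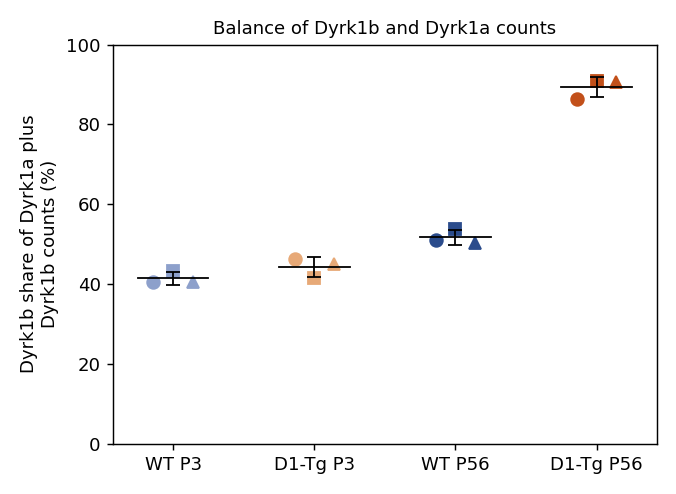
Dyrk1b as a percentage of the summed Dyrk1a and Dyrk1b counts in each library, with the mean and SD of each group of 3. Shares lie between 40.4 and 46.4% at P3, between 50.3 and 53.8% in WT at P56 and between 86.5 and 90.8% in D1-Tg at P56.

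Beside Dyrk1b, 2 HIPK genes rose and Dyrk2 fell in D1-Tg hearts at P56, while Dyrk1a, Dyrk3 and Hipk1 did not pass the test. That is 3 of the 6 other members tested, 2 higher and 1 lower, where 25.7% of all genes tested were called (14.1% higher and 11.5% lower). At P3, 0 of the 7 members tested were called between labels, where edgeR called 0% of all genes (681 genes had an unadjusted p under 0.05, and DESeq2 called 1 gene).

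Hipk2, a cofactor kinase that binds homeodomain proteins and phosphorylates p53, rose most among them. It stood at 211, 213 and 202 CPM in WT at P56 and at 388, 307 and 316 CPM in D1-Tg at P56. Every transgenic library lies above every WT library. The log2 fold change was 0.69 (SE 0.11, edgeR adjusted p = 7.39e-04), a 1.62-fold difference with a 95% interval of 1.37 to 1.91. At P3 it stood at 182, 136 and 142 CPM in WT and at 136, 144 and 139 CPM under the D1-Tg label, with a log2 difference of -0.14 (adjusted p = 0.927). The genotype effect at P56 was larger than that at P3 by 0.83 (SE 0.16, edgeR adjusted p = 0.00445 for the interaction). An opposite-strand gene, Tbxas1, overlaps Hipk2 in the annotation. Its level was 3.11 ± 0.339 CPM in WT and 2.79 ± 0.448 CPM in D1-Tg at P56, far below that of Hipk2.

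Hipk3, another nuclear cofactor kinase of this branch, rose by a smaller amount. Its libraries held 269.8, 274 and 289 CPM in WT and 444, 346 and 362 CPM in D1-Tg at P56, without overlap. The log2 fold change was 0.47 (SE 0.10, edgeR adjusted p = 0.00384), a 1.38-fold difference (95% interval 1.2 to 1.60). At P3 the values were 349, 290.1 and 297 CPM in WT and 295, 318 and 298 CPM under the D1-Tg label, with a log2 difference of -0.04 (adjusted p = 0.967). The effects at the 2 ages differed by 0.51 (SE 0.14, edgeR adjusted p = 0.027). That interaction did not pass without D1-Tg P3 replicate 1 (adjusted p = 0.0631), D1-Tg P3 replicate 3 (0.0593), WT P56 replicate 1 (0.0658) or WT P56 replicate 2 (0.0612), with values of 0.48 to 0.49.

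Hipk1, the third HIPK gene measured, did not pass the test in any comparison, and its libraries varied widely. It held 109, 121 and 155 CPM in WT and 175, 133 and 103 CPM in D1-Tg at P56, so the groups overlap over most of their range. The log2 difference of 0.10 has a 95% interval of -0.30 to 0.49 (edgeR adjusted p = 0.736), which includes a 1.40-fold increase and so does not show that its level was the same. Within a library, the ratio of Hipk2 to Hipk1 counts was 1.30 to 1.94 in WT and 2.21 to 3.07 in D1-Tg at P56, against 1.06 to 1.21 over the P3 libraries. The ratio was above the range of the newborn libraries in every adult library, and above the WT range in every transgenic adult.

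**Figure D3:**
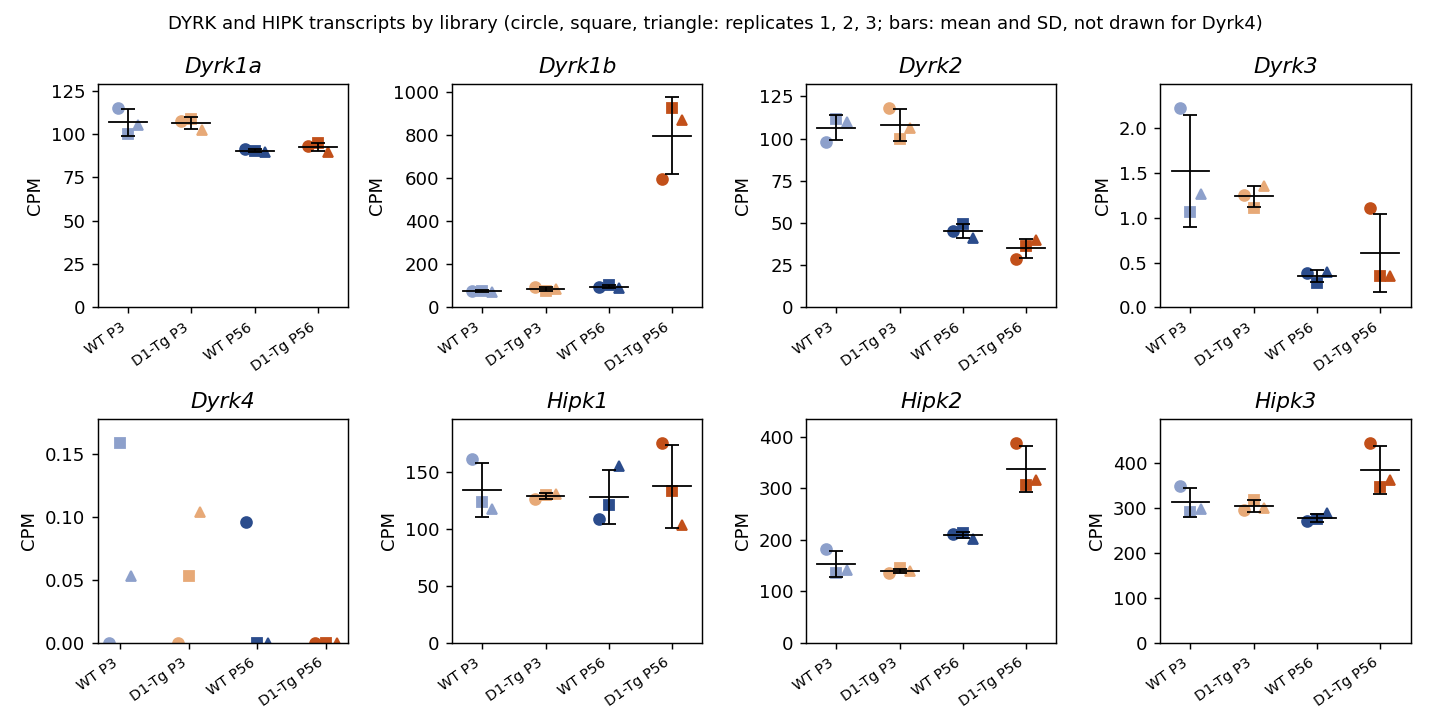
CPM of the 8 genes in each of the 12 libraries, by group, on a linear axis of its own for each gene that starts at 0. Hipk2 and Hipk3 in D1-Tg at P56 (307 to 388 and 346 to 444 CPM) lie above all WT libraries of that age, and Dyrk2 (28.6 to 39.9 CPM) lies below them.

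Dyrk2, a class II kinase that acts with a ubiquitin ligase complex and in p53 and Hedgehog signalling, was the member that fell. It stood at 45.5, 49.2 and 40.8 CPM in WT and at 28.6, 36.3 and 39.9 CPM in D1-Tg at P56. The groups do not overlap, but the highest transgenic and the lowest WT library lie close together. The log2 fold change was -0.37 (SE 0.12, edgeR adjusted p = 0.0379), with a 95% interval from -0.63 to -0.11. The call was not kept without WT P56 replicate 1 (-0.38, adjusted p = 0.0773), WT P56 replicate 2 (-0.32, 0.12), D1-Tg P56 replicate 1 (-0.26, 0.0994) or D1-Tg P56 replicate 2 (-0.42, 0.0502), nor in a fit of the 2 groups alone (adjusted p = 0.0799). At P3 it held 97.8, 112 and 109.8 CPM in WT and 118, 99.7 and 106 CPM under the D1-Tg label (log2 difference 0.02, adjusted p = 0.985). The effects at the 2 ages were not shown to differ (-0.39, 95% interval -0.74 to -0.04, adjusted p = 0.128).

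Dyrk3, a class II kinase known for dissolving stress granules and for its expression in erythroid cells, was near the limit of detection in adult hearts. At P56 it had 4, 3 and 4 counts in WT and 12, 4 and 4 counts in D1-Tg, or 0.274 to 0.400 and 0.348 to 1.11 CPM. The log2 difference of 0.75 (95% interval -0.52 to 2.02, edgeR adjusted p = 0.385) was -0.01 without D1-Tg P56 replicate 1. Dyrk4, a class II kinase best known from testis, was at 0 to 3 counts in every library. Summed over 3 libraries it had 4 counts in WT and 3 under the D1-Tg label at P3, 1 in WT and 0 in D1-Tg at P56. A count of 0 in D1-Tg at P56 allows up to 0.0774 CPM (3 counts of the group's unscaled total of 38762848 counts, counting error only), so no difference in Dyrk4 was detectable at this depth.

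**Figure D4:**
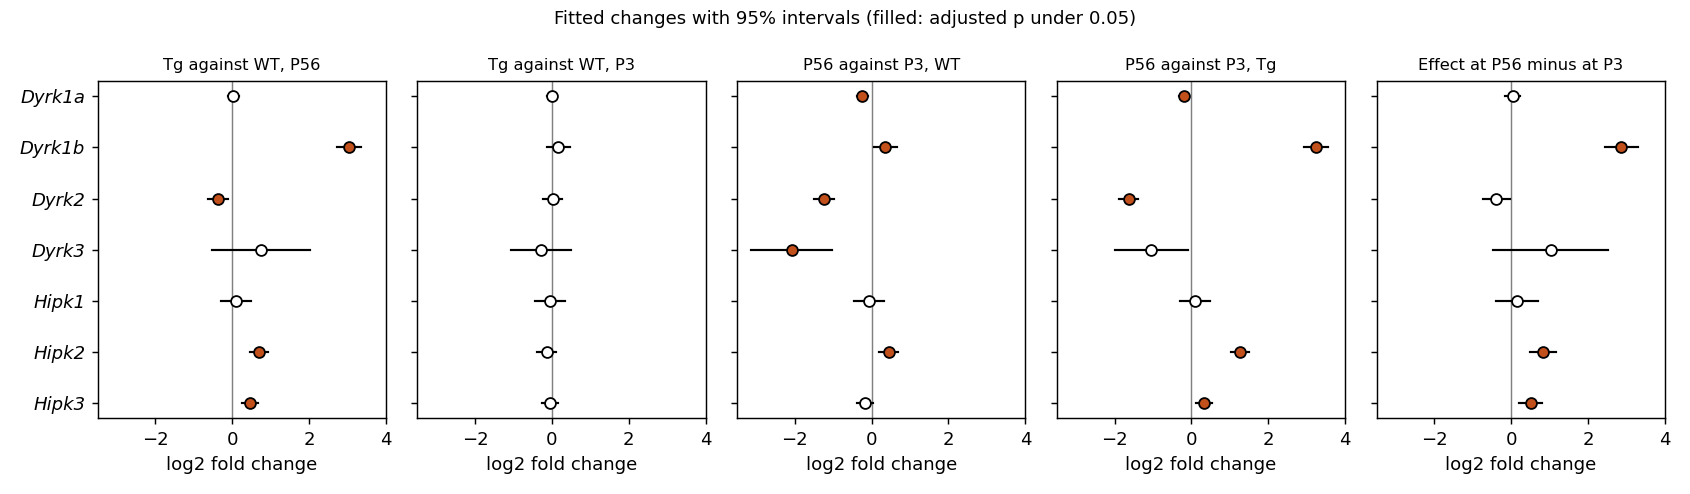
Fitted log2 fold changes (points) with 95% intervals (lines) of the 7 members tested, in 5 panels for the genotype comparison at each age, the age comparison in each genotype, and the genotype effect at P56 minus that at P3. Filled points have an edgeR adjusted p under 0.05. At P56 the filled points are Dyrk1b (3.04), Hipk2 (0.69), Hipk3 (0.47) and Dyrk2 (-0.37), and at P3 no point is filled.

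Among the transgenic adults, the library with the least Dyrk1b was the one with the most Hipk2 and Hipk3 and the least Dyrk2. D1-Tg P56 replicate 1 had 596 CPM of Dyrk1b, yet the highest Hipk1, Hipk2, Hipk3 and Dyrk3 (175, 388, 444 and 1.11 CPM) and the lowest Dyrk2 (28.6 CPM) of the 3. Replicates 2 and 3, with 929 and 871 CPM of Dyrk1b, had 307 and 316 CPM of Hipk2 and 346 and 362 CPM of Hipk3. With 3 libraries no relation between these levels can be tested. That replicate also had the highest summed immediate early genes (431 CPM against 317 and 348), the highest summed epicardial and mesothelial markers (53.4 CPM against 9.56 and 10.5) and the lowest summed cardiomyocyte markers (67245 CPM against 69764 and 73821). The part of these in its values was not tested. Without it, Hipk2 was still called (0.57, edgeR adjusted p = 0.003), as was Hipk3 (0.34, adjusted p = 0.0147).

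**Figure D5:**
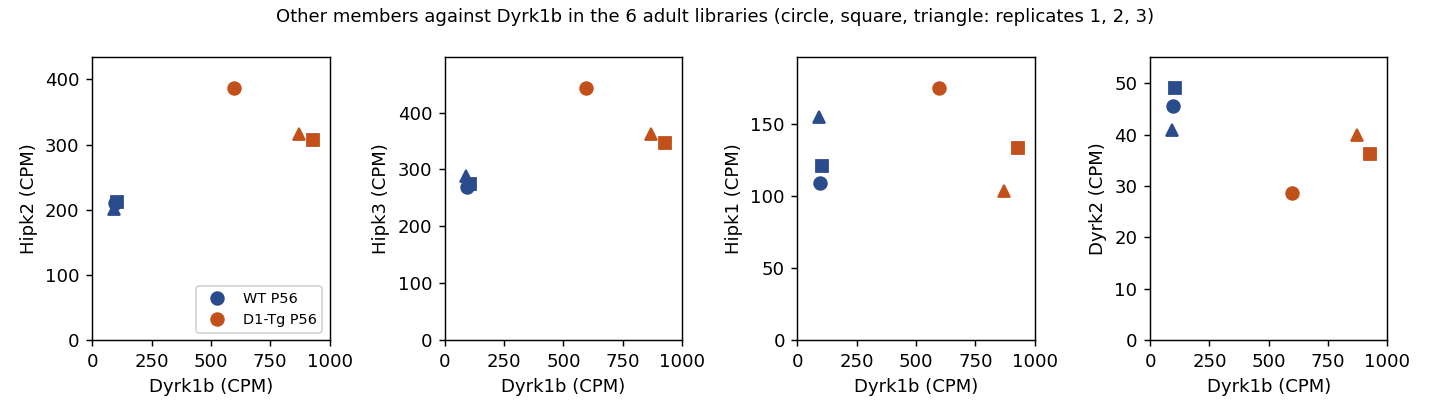
CPM of Hipk2, Hipk3, Hipk1 and Dyrk2 against CPM of Dyrk1b in the 6 libraries of P56, in 4 panels with linear axes that start at 0. The transgenic library with the lowest Dyrk1b (596 CPM, circle) has the highest Hipk2, Hipk3 and Hipk1 and the lowest Dyrk2.

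Markers of cell types moved with genotype at P56 beside these kinases, where 14.1% of all genes were called higher and 11.5% lower. Of 8 fibroblast markers 6 rose, with a summed level of 1258 to 1329.6 CPM in WT and 2352 to 2657 CPM in D1-Tg. Of 8 endothelial markers 6 fell (1452 to 1593 against 1151 to 1280.2 CPM), and in the list for smooth muscle and pericytes 4 of 8 genes fell and 2 rose (1070.4 to 1195 against 654 to 832 CPM). Cardiomyocyte markers had 3 higher and 1 lower of 8 (79236 to 81819 against 67245 to 73821 CPM), macrophage markers 0 of 8 called (477 to 599 against 633 to 661 CPM) and atrial markers 2 higher of 6 (167 to 241 against 505 to 1046 CPM). Myh6 makes up a large part of the cardiomyocyte sum, so that sum can be lower while more of the genes are higher. Epicardial and mesothelial markers had 1 higher of 6 (8.66 to 13.4 against 9.56 to 53.4 CPM). Immediate early genes, which respond to handling of tissue among other stimuli, had 3 higher and 1 lower of 10, and their summed level did not overlap (232 to 246 against 317 to 431 CPM). Adipocyte markers summed to 28.1 to 36.3 CPM in WT and 67.1 to 81.9 CPM in D1-Tg, with 1 gene tested, which rose. Lymphocyte and thymus markers (4.30 to 7.37 CPM over the adult libraries) were low, as were those of nerve and glia (at most 17.1 CPM), of which 2 of 5 tested fell. Skeletal muscle markers, a tissue with high Dyrk1b, were at 0.912 to 1.65 CPM, and Myog, Myh1 and Pax7 were at 0 in all adult libraries. The part of all these in the Hipk2, Hipk3 and Dyrk2 values was not tested. At P3, edgeR called 0% of all genes between labels, and so 0 genes of these lists.

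From P3 to P56 in WT hearts, Dyrk2 fell 2.36-fold, Dyrk1a fell by a small amount, and Hipk2 and Dyrk1b rose. Of the 7 members tested 2 were called higher and 3 lower, with Dyrk3 among the lower ones, where 68.9% of all genes tested were called (33.8% higher and 35.1% lower). That share of members is near the share of all genes. The fit keeps the 3 WT libraries of P56 that also served in the genotype comparison, so these are not independent results. Dyrk2 fell from 106 ± 7.51 to 45.2 ± 4.17 CPM (mean ± SD, n = 3), a log2 fold change of -1.24 (SE 0.11, edgeR adjusted p = 9.92e-07). Dyrk3 fell from 1.52 ± 0.623 to 0.353 ± 0.0693 CPM (-2.08, SE 0.49, edgeR adjusted p = 0.00214). It passed the filter only through its P3 level. Had Dyrk3 been as low at P3 as at P56, it would not have been tested, so its fall is not independent of the filter. Dyrk1a fell by 0.24 on the log2 scale (SE 0.06, adjusted p = 0.00418), from 107 ± 7.83 to 90.3 ± 0.763 CPM. Cell markers moved with age too. All 7 erythroid markers tested fell, from a summed 2219 to 3219.7 CPM to 268 to 766 CPM, as did 6 of 6 atrial markers (median log2 fold change -4.28) and 6 of 6 epicardial and mesothelial markers (-4.77). Cardiomyocyte markers had 8 of 8 higher (0.62) and macrophage markers 7 of 8 (1.80), while endothelial markers had 4 of 8 lower (-0.17). The part of these in the age differences of the kinases was not tested.

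Hipk2 rose with age in WT from 153 ± 25.1 to 209 ± 5.93 CPM (log2 fold change 0.44, SE 0.11, edgeR adjusted p = 0.00322). Dyrk1b rose from 75.3 ± 3.35 to 96.9 ± 7.43 CPM (0.36, SE 0.14, adjusted p = 0.0337). That call was not kept with a sex term (adjusted p = 0.0578), nor without WT P3 replicate 1 (0.0501), 2 (0.0641) or 3 (0.0962), or without WT P56 replicate 1 (0.0713) or 2 (0.135), with log2 values of 0.29 to 0.39. Hipk1 (-0.07) and Hipk3 (-0.17, adjusted p = 0.135) did not pass.

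In D1-Tg hearts the same comparison, with the P3 label as given, called 3 members higher and 2 lower of 7. Without Dyrk1b, the manipulated gene, it called 2 higher and 2 lower of 6, where 70.6% of all genes were called (35.7% higher and 34.9% lower). Dyrk1b rose by 3.24 (SE 0.15, edgeR adjusted p = 2.12e-09), Hipk2 by 1.27 (SE 0.11, adjusted p = 5.77e-07) and Hipk3 by 0.34 (SE 0.10, adjusted p = 0.00755). Dyrk2 fell by 1.63 (SE 0.12, adjusted p = 9.51e-08) and Dyrk1a by 0.20 (SE 0.06, adjusted p = 0.0118). Dyrk3 stood at -1.04 (SE 0.44, adjusted p = 0.0509), with 12, 4 and 4 counts in D1-Tg at P56. It passed without D1-Tg P56 replicate 1 (-1.80, adjusted p = 0.00486), with RLE size factors (-1.05, adjusted p = 0.0487) and with the replicate block (-1.11, adjusted p = 0.0231). Dyrk3 was tested only through its P3 level, so the limit given for its fall in WT holds here too. The test of whether the genotype effect differs between ages is the same as the test of whether the age effect differs between genotypes. It called Dyrk1b, the manipulated gene, and 2 of the 6 other members tested, Hipk2 and Hipk3. All had the more positive effect in D1-Tg from P3 to P56. Over all genes 14.8% were called (8.42% higher and 6.42% lower).

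Genes known to work with these kinases were read from lists of pathways, of which only the members' partners and readouts are given here. D1-Tg against WT at P56 comes first, where the median log2 fold change of all genes was 0.00. Over all genes tested, 14.1% were called higher and 11.5% lower, and several lists lay near or under those shares. In the calcineurin and NFAT list 2 of 12 rose and 1 fell (median 0.10). Rcan1, an inhibitor of calcineurin, rose, with 69.4 ± 3.00 CPM in WT hearts against 422 ± 79.7 CPM in D1-Tg hearts (log2 fold change 2.60, SE 0.14, edgeR adjusted p = 2.65e-07). Rcan2, its relative, rose by 0.56 (SE 0.07, adjusted p = 1.74e-04), while Ppp3cb, a catalytic subunit of calcineurin, fell by 0.18 (SE 0.05, adjusted p = 0.0268) and did not pass without D1-Tg P56 replicate 2, with the replicate block or in the fit of these 2 groups alone, each of which left 0 lower. Among D cyclins, their kinases and CDK inhibitors, 2 of 11 fell and 0 rose (median -0.07, and -0.19 without D1-Tg P56 replicate 2). Ccnd2, cyclin D2, fell from 205 ± 18.5 to 74.0 ± 7.62 CPM (-1.47, SE 0.13, adjusted p = 1.36e-05), and Cdkn1c, the CDK inhibitor p57, from 47.8 ± 8.48 to 23.5 ± 6.13 CPM (-1.02, SE 0.18, adjusted p = 0.0013). Without WT P56 replicate 3, D1-Tg P56 replicate 1 or D1-Tg P56 replicate 3, 1 gene of that list was higher.

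Few genes of the repressor complex downstream of class I kinases were called at P56, where 25.7% of all genes were. Of 12 DREAM subunits 1 fell (Lin37, -0.44, SE 0.11, edgeR adjusted p = 0.0124), with 2 lower without D1-Tg P56 replicate 2 or by DESeq2 and 3 lower in the fit of these 2 groups alone. Of 19 cell cycle genes that DREAM represses 0 were called, against 1 lower without D1-Tg P56 replicate 3, by DESeq2 and in the fit of these 2 groups alone. Their median of -0.10 was 0.04 without WT P56 replicate 2 or D1-Tg P56 replicate 1 and -0.25 without WT P56 replicate 3. The SE of their log2 fold changes reached 0.54, so genes not called are not shown to be unchanged. From P3 to P56 in WT, 17 of these 19 genes fell, where 35.1% of all genes tested were called lower. Their median was -2.95, against -0.03 for all genes. Mki67, a marker of dividing cells, fell from 79.4 ± 3.45 to 10.3 ± 1.75 CPM (-2.95, SE 0.12, edgeR adjusted p = 1.16e-09).

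Partners of DYRK kinases had 6 of 21 genes higher and 0 lower at P56 (median 0.06), but the count was 1 without WT P56 replicate 1 and 3 without WT P56 replicate 2, D1-Tg P56 replicate 1 or D1-Tg P56 replicate 3, and 1 was lower by DESeq2 or in the fit of these 2 groups alone. The leading one was Hsp90aa1, a chaperone of many kinases, at 122 ± 12.6 CPM in WT and 299.5 ± 79.1 CPM in D1-Tg (1.29, SE 0.16, edgeR adjusted p = 1.08e-04), followed by Katna1, the katanin subunit that DYRK2 phosphorylates (0.39, SE 0.10, adjusted p = 0.0145), and Spred1, a Ras pathway inhibitor (0.45, SE 0.12, adjusted p = 0.0183). Dcaf7, the scaffold that binds class I kinases, was not called, with 90.4 ± 5.05 CPM in WT hearts and 86.1 ± 2.99 CPM in D1-Tg hearts. Partners of HIPK kinases had 1 of 18 higher and 1 lower (median -0.01). Smad3, an effector of TGF-beta, stood at 0.35 (SE 0.12, edgeR adjusted p = 0.0451), a call not kept without WT P56 replicate 2, D1-Tg P56 replicate 1 or D1-Tg P56 replicate 3, nor with a sex term, with RLE size factors, in the unfiltered fit or with these 2 groups alone. Without WT P56 replicate 1 or D1-Tg P56 replicate 3, 2 genes of that list were lower. The share called over all genes at P56 was 25.7%, against 6 of 21 and 2 of 18 here.

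Related kinases of the same CMGC group had 3 of 22 higher and 1 lower (median -0.08), with 3 lower without D1-Tg P56 replicate 2 and 2 without D1-Tg P56 replicate 3 or with RLE size factors. Beside the lists of this paragraph, 14.1% of all genes were called higher at P56 and 11.5% lower. Srpk3, a splicing factor kinase of muscle, rose by 1.05 (SE 0.11, edgeR adjusted p = 3.64e-05), from 39.8 ± 1.44 to 82.2 ± 5.6 CPM, Srpk2 by 0.31 (SE 0.07, adjusted p = 0.00768) and Cdk8, a kinase of the Mediator complex, by 0.42 (SE 0.10, adjusted p = 0.00836). Hipk4, the HIPK relative that is not a member here, was at 0.606 ± 0.0304 CPM in WT and 0.654 ± 0.0392 CPM in D1-Tg. In the Hedgehog list 1 of 8 tested genes rose (median -0.01, and -0.17 without D1-Tg P56 replicate 3), the transcription factor Gli2 (1.10, SE 0.20, adjusted p = 0.00164), with 2 higher and 1 lower without D1-Tg P56 replicate 2 and 1 lower by DESeq2. In the STAT3 list 4 of 8 rose and 1 fell (median 0.53, and 0.17 without D1-Tg P56 replicate 1), with 0 lower without WT P56 replicate 3 or D1-Tg P56 replicate 3. Jak2, a kinase upstream of STAT3, rose by 0.66 (SE 0.10, adjusted p = 6.38e-04), Il6st, the shared receptor chain gp130, by 0.39 (SE 0.06, adjusted p = 7.2e-04) and Stat3 by 0.66 (SE 0.11, adjusted p = 9.61e-04). At P3 edgeR called 0% of all genes between labels, and so 0 genes of any of these lists.

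With age in WT, the lists were read the same way, beside the 33.8% of all genes called higher and 35.1% called lower, and several of them lay near those shares. DREAM subunits had 2 of 12 genes higher and 5 lower, among them the histone-binding Rbbp4 (-0.46, SE 0.06, edgeR adjusted p = 1.02e-05) and Lin52, the subunit that DYRK1A phosphorylates (1.29, SE 0.18, adjusted p = 4.03e-05). Of the DREAM-repressed genes, Ccna2, cyclin A2, fell by 3.72 (SE 0.18, adjusted p = 3.98e-09). D cyclins and their regulators had 2 of 11 higher and 5 lower, with 1 higher under a sex term and without any single library of the 6 except WT P3 replicate 2. Ccnd3, cyclin D3, fell by 1.10 and Cdk6, a kinase that D cyclins activate, by 1.54. Calcineurin and NFAT genes had 5 of 12 higher and 3 lower, with Rcan2 higher by 1.94 and Nfat5, an NFAT relative that responds to osmotic stress, lower (-1.03).

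The shares of all genes called with age in WT, 33.8% higher and 35.1% lower, apply to the following lists too. Partners of DYRK kinases had 7 of 21 higher and 8 lower with age (5 lower without WT P56 replicate 1), near those shares. Mapt, the microtubule protein tau and a DYRK1A substrate, rose by 5.52 (SE 0.14, edgeR adjusted p = 5.26e-11), and Cdc37, a kinase chaperone, by 0.64 (SE 0.06, adjusted p = 6.64e-07). Partners of HIPK kinases had 4 of 18 higher and 11 lower, such as Ctbp2, a corepressor (-1.04), and Smad3 (-1.26). The Hedgehog list had 7 of 8 lower and 0 higher, with the signal transducer Smo at -1.25 and the transcription factor Gli3 at -1.82. Related CMGC kinases had 4 of 22 higher and 14 lower, including the cell cycle kinase Cdk2 (-1.36) and Gsk3a, a kinase of glycogen synthase (0.51). The STAT3 list had 3 of 8 higher and 1 lower, with Jak1 at 0.48 and the STAT3 inhibitor Pias3 at -0.60.

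The genes most like each member were ranked by Pearson's r of log2 CPM over the 12 libraries among genes with a mean of at least 1 CPM. For Dyrk1b they were Rnf115 (r = 0.991), Srl (0.989) and Nos1 (0.986), and for Hipk2 they were Cast (0.989), Golga3 (0.989) and Il6st (0.989). For Dyrk2 they were Neo1, Bcar1 and Pxdn (0.995 each), for Hipk3 Nlrp10 (0.975), Hand2 (0.965) and Cyp1b1 (0.963), and for Dyrk1a Med14 (0.971), Zfp646 (0.968) and Mau2 (0.968). Hipk1 had the weakest matches, Man2a1 (0.919), Nsrp1 (0.916) and Rnf169 (0.884), and Dyrk3, at few counts, was most like Mmp8 (0.981), Piga (0.974) and Erbin (0.971). Between members, r was highest for Dyrk1b with Hipk2 (0.882) and Dyrk1a with Dyrk3 (0.880) and lowest for Dyrk2 with Hipk2 (-0.930). The points share the 4 groups, so these values describe how means differ between groups more than how libraries vary within them.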

How the data were processed

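RNA of 12 mouse heart libraries was analysed. Total RNA came from frozen hearts by TRIzol, per the labels. The submitters' processing notes list HISAT2 2.0.4, STAR 2.3.0, DESeq2, mm8 and mm9, with no role, and the counting tool, its strand setting and its treatment of shared reads are not given in the sources used here. The values the authors deposited are expected counts per gene, with no normalization recorded, per the file headers, and 29.3 to 32.8% of genes in a library hold decimals. They were rounded to whole numbers, filtered with filterByExpr (14212 of 18444 genes left), scaled by TMM and fitted in edgeR 4.0.16 (R 4.3.3) with a mean per group over all 12 libraries and 8 residual degrees of freedom. Benjamini-Hochberg adjustment covered every gene tested, and calls needed an adjusted p under 0.05. SE is the absolute log2 fold change over the square root of F. CPM use TMM-scaled totals. Lists were described by counts and medians, with no test of a list. The fit was tested on simulated data.

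The members and lists were chosen with earlier results of these data known. Named genes are the members, the leading called genes of each list (up to 3 at P56 and up to 2 with age in WT, by p), the 3 most alike genes per member and Myh6. Dcaf7, Hipk4, Tbxas1 and the markers Myog, Myh1 and Pax7 were named outside this rule, after their values were seen. A gene that the rule gives is not reported here. Alternatives were RLE factors, no low-count filter, leaving out the 10 genes with most counts, a replicate block, a sex term, the compared groups alone, DESeq2 1.42.0 and leaving out each library. Their use on the pathway lists, other than leaving out libraries, was chosen after seeing the data. Replicate numbers did not pair the libraries. Gene lengths come from GENCODE M21 (GRCm38), whose build may differ from that of the counts.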

Additional observations from a re-analysis of the deposited data

Results flagged for a closer look

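For 3 of the 7 members tested the genotype effect differed between the ages by the interaction test of edgeR, with the P3 labels as given. Over all genes tested, 14.8% were called (8.42% higher and 6.42% lower). Dyrk1b, 1 of the 3, is the manipulated gene, which leaves 2 of the 6 other members tested. The difference, effect at P56 minus effect at P3 on the log2 scale, was 2.87 for Dyrk1b (SE 0.20, adjusted p = 1.08e-05), 0.83 for Hipk2 (SE 0.16, adjusted p = 0.00445) and 0.51 for Hipk3 (SE 0.14, adjusted p = 0.027). For Hipk2 and Hipk3 the effects at P3 were -0.14 and -0.04 and did not pass, and those at P56 were 0.69 and 0.47. The Hipk3 difference did not pass without D1-Tg P3 replicate 1 (adjusted p = 0.0631), D1-Tg P3 replicate 3 (0.0593), WT P56 replicate 1 (0.0658) or WT P56 replicate 2 (0.0612).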

How the results depend on the processing

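The 19 alternative fits gave 489 values for the 35 member results. The calls of Dyrk1b, Hipk2 and Hipk3 at P56 were kept under all 13 alternatives that cover that comparison. Their log2 ranges were 2.9 to 3.2, 0.57 to 0.73 and 0.34 to 0.52. The call of Dyrk2 at P56 was lost in 7 of 13: 0 members were lower with the replicate block (-0.37, adjusted p = 0.058), with a sex term (adjusted p = 0.0517) and in the fit of the compared groups alone, and 0 to 1 were lower when single libraries were left out. With age in WT, 1 member was higher under the sex term and 1 to 2 when libraries were left out. DESeq2 called 1 gene over all genes at P3. The cause was not tested. Replicate numbers did not pair the libraries (same-number correlations of deviations were -0.23 to 0.00), and under the replicate block Dyrk3 passed with age in D1-Tg (-1.11, adjusted p = 0.0231). Some values that were not called changed sign when libraries were left out. At P56 the ranges were -0.01 to 0.03 for Dyrk1a, -0.01 to 1 for Dyrk3 and -0.13 to 0.24 for Hipk1. At P3 they were -0.05 to 0.05 for Dyrk1a, -0.05 to 0.08 for Dyrk2, -0.49 to 0.09 for Dyrk3, -0.15 to 0.09 for Hipk1, -0.22 to 0.01 for Hipk2 and -0.09 to 0.05 for Hipk3. Hipk1 with age ranged from -0.23 to 0.09 in WT and from -0.13 to 0.24 in D1-Tg, and for the interaction -0.02 to 0.09 for Dyrk1a and -0.06 to 0.32 for Hipk1. Depth limits Dyrk3 and Dyrk4, which had at most 40 and 3 counts in a library.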
